A study of Mus musculus with 16 samples.

Results

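The leptomeninges, the thin membranes of arachnoid and pia that cover the brain, are built by fibroblasts. These cells make collagen, carry organic anions, sulfate, carboxylates and GABA across the surface of the brain with solute carriers, and are the main place in the forebrain where retinal is oxidised to retinoic acid. Retinoic acid diffuses from the meninges into the cortex, is bound in cells by small carrier proteins and acts through nuclear receptors that switch on target genes. The 7 genes described here, out of 20134 with a value on all arrays, are the transporter genes *Slc22a6*, *Slc6a13*, *Slc13a3* and *Slc13a4*, the retinoid genes *Aldh1a2* and *Crabp2*, and *Foxc2*, a forkhead transcription factor of mesenchyme. They were chosen by name for their known place in the leptomeninges and not by a measured value, although earlier results of these arrays were known. Each had 1 probe, which was matched to the gene by its RefSeq accession, was well above the local background on all 16 arrays and was saturated on none.

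The RNA came from the right neocortex, rostral from bregma, of C57BL/6J mice, and the left cortex with the sensorimotor area had been aspirated in the operated groups (hemidecortication). Control pools were from postnatal day 7 (NC P7), day 14 (NC P14), day 35 (NC P35) and 10 weeks (NC 10W). Mice operated on at postnatal day 7 were taken 1 week later at day 14 (NBI 1W) and 4 weeks later at day 35 (NBI 4W), and mice operated on as adults were taken after 1 week at 11 weeks of age (ABI 1W) and after 4 weeks at 15 weeks (ABI 4W). No other treatment or allele was named. Per the methods, the RNA of 4 male animals was pooled in each group, and each of the 8 pools was measured on 1 array with Cy3 and on 1 array with Cy5. The 2 arrays repeat the same RNA, so an SD with n = 2 arrays is the technical spread only, and no test between groups could be made. NC 10W is the control of both ABI pools, which were older than it by 1 and 5 weeks, so the changes of ABI 1W and ABI 4W share that pool. Row 1 of both chips held the controls and row 2 the operated pools, so chip position and surgery cannot be told apart. Whether the meninges were left on the cortex is not given in the sources used here.

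The share of spots well above background was 60.2% to 72.2% on the 16 arrays. All 10 markers of neocortical neurons were above background in every pool. Markers of the choroid plexus, a tissue of the ventricles that also carries solute carriers, differed strongly between pools: their summed level (linear signal relative to the 75th percentile of the array, both dyes) was 25.8 to 26.5 in NC P14 and 65.3 in NBI 1W, 28.8 to 29.1 in NC P35 and 46.1 to 48.2 in NBI 4W, 27.0 to 27.9 in NC 10W, 25.9 to 26.2 in ABI 1W and 56.8 to 60.8 in ABI 4W. In NC P7 that sum was 13.6 to 14.2. The choroid plexus sums rest mostly on *Enpp2* in NC P14, NC P35, NC 10W and ABI 1W. They rest on *Enpp2* and *Ttr* (transthyretin) in NBI 1W, NBI 4W and ABI 4W. The log2 level of *Enpp2* was 4.48 in NC P14 and 4.72 in NBI 1W, and that of *Ttr* was -1.48 and 5.05. *Xist*, the RNA of the inactive X chromosome, had a log2 level of -2.81 ± 0.11 (SD, n = 2 arrays) in NC P35, with both arrays well above background there and at most 1 array in the other pools, although male animals are described.

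Levels are log2 signals minus the 75th percentile of the array, so a level of 0 is a signal at that percentile. Since signals of different probes cannot be set against each other, each gene was followed across pools. Genes were called higher where the ratio of surgery to control reached 1.5 on the Cy3 and on the Cy5 chip, and lower where it was 0.75 or less on each of them. In these bulk samples, fewer cells of a type and less RNA per cell cannot be told apart.

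Across the 8 pools the 7 genes varied by 1.44-fold for *Crabp2* to 2.38-fold for *Aldh1a2*. By the mean of the dyes, the level was highest in ABI 1W for 6 of the 7 genes, the exception being *Slc22a6*, and it was lowest in NC P14 or NBI 1W for 6 of the 7, the exception being *Slc13a3*. The arrays of ABI 1W overlapped those of the next pool for *Slc6a13* (NC 10W) and *Slc13a4* (ABI 4W). How many of all genes had the same highest or lowest pools was not counted. Over all genes, ABI 1W also had the largest share called higher (4.44%, against 0.214% to 0.472% in the other comparisons). For *Crabp2* only NBI 1W was low at day 14 (0.70, against 0.95 in NC P14). In the 4 comparisons of surgery with control, 1 of 28 values passed the limits: *Slc13a3* was 1.65-fold higher in ABI 1W than in NC 10W.

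**Figure D1:**
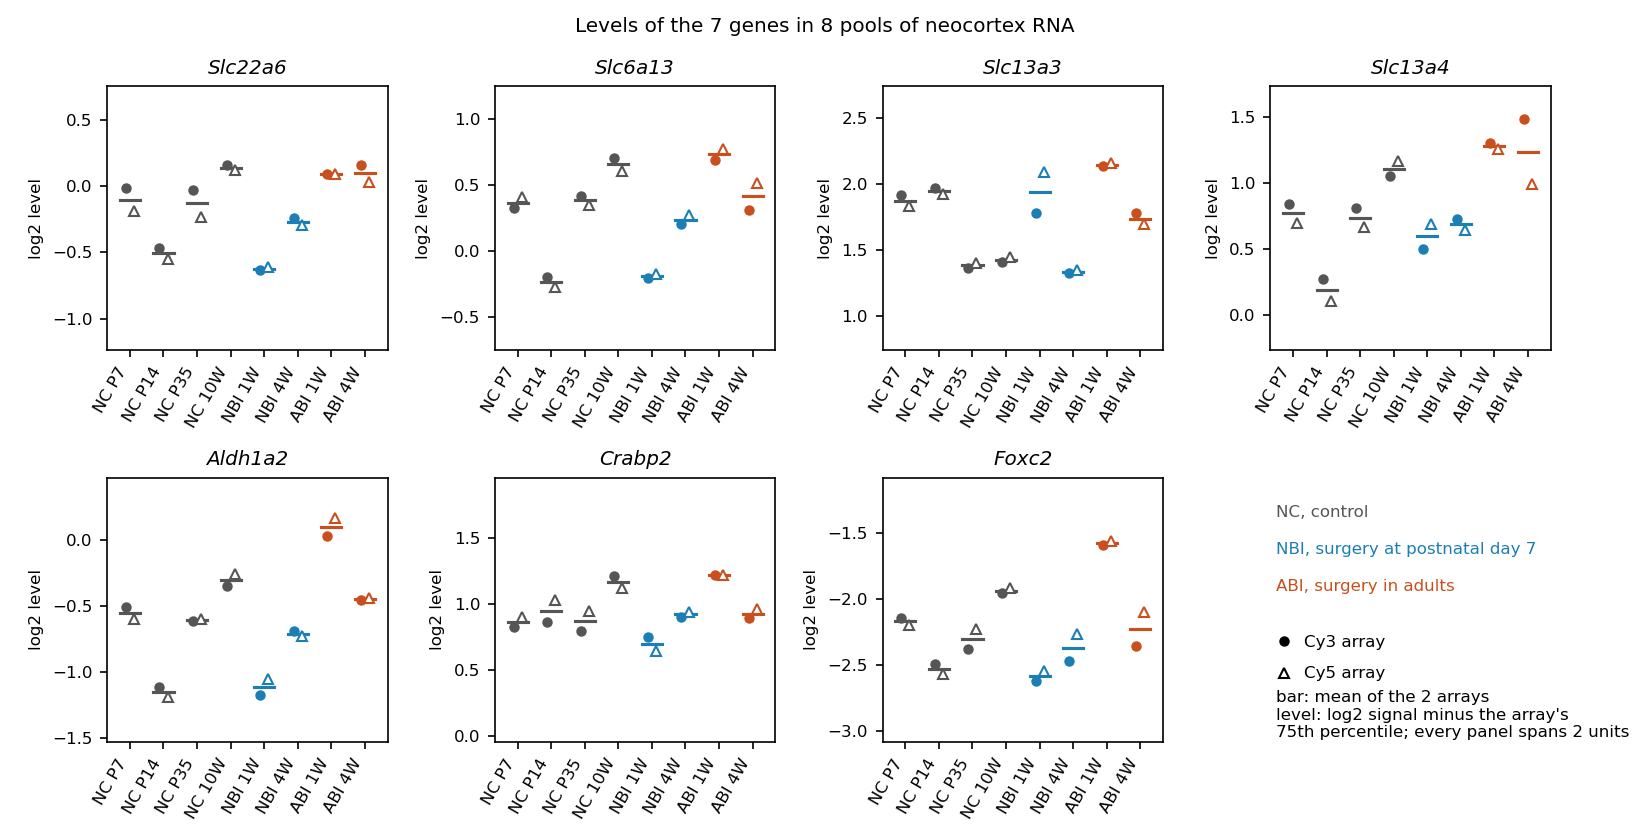
Log2 level (signal minus the 75th percentile of the array) of each gene in the 8 pools, with the Cy3 array as a filled circle, the Cy5 array as an open triangle and their mean as a bar. Controls are grey, NBI pools blue and ABI pools orange. By the mean, ABI 1W is the highest pool in all panels but *Slc22a6*, and *Slc13a3* lacks the low values in NC P14 and NBI 1W that the other transporters show.

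*Slc22a6* (NM_008766, chr19:8617996-8628299, GRCm38.p6) encodes the organic anion transporter OAT1. Its level in the controls was -0.10 ± 0.13 in NC P7, -0.50 ± 0.06 in NC P14, -0.13 ± 0.14 in NC P35 and 0.14 ± 0.03 in NC 10W (SD, n = 2 arrays each, as for all levels below). After surgery it was -0.62 ± 0.01 in NBI 1W, -0.27 ± 0.04 in NBI 4W, 0.09 ± 0.00 in ABI 1W and 0.10 ± 0.09 in ABI 4W. The adult pools were the 3 highest and the arrays of both ABI pools overlapped, as did those of ABI 4W and NC 10W. The surgery-minus-control changes were -0.12, -0.14, -0.05 and -0.04 (log2) in NBI 1W, NBI 4W, ABI 1W and ABI 4W, and none reached a limit.

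*Slc6a13* (NM_144512, chr6:121300288-121337721) encodes GAT2, a GABA and taurine carrier. It stood at 0.36 ± 0.06 in NC P7, -0.24 ± 0.05 in NC P14, 0.38 ± 0.05 in NC P35 and 0.65 ± 0.07 in NC 10W. In the operated pools it was -0.19 ± 0.02 in NBI 1W, 0.23 ± 0.05 in NBI 4W, 0.73 ± 0.06 in ABI 1W and 0.41 ± 0.14 in ABI 4W. The day 14 pools were lowest and overlapped each other, and ABI 1W and NC 10W overlapped at the top. Its changes with surgery were 0.04, -0.15, 0.08 and -0.24 (log2) in the same order of comparisons. The change in ABI 4W was -0.39 with Cy3 and -0.09 with Cy5, short of the limit with both.

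*Slc13a3* (NM_054055, chr2:165405295-165473197) encodes NaDC3, which takes up dicarboxylates such as succinate with sodium. Its level was 1.87 ± 0.06 in NC P7, 1.95 ± 0.03 in NC P14, 1.38 ± 0.02 in NC P35 and 1.42 ± 0.03 in NC 10W. It was 1.93 ± 0.22 in NBI 1W, 1.33 ± 0.02 in NBI 4W, 2.14 ± 0.01 in ABI 1W and 1.73 ± 0.06 in ABI 4W. Both arrays of ABI 1W lay above all other arrays, and those of ABI 4W lay above all arrays of NC 10W and NC P35. The median spot signals behind the comparison were 5970 (Cy3) and 6505 (Cy5) in ABI 1W against 3224 and 3925 in NC 10W, over local backgrounds of 59 to 80.

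The change of *Slc13a3* in ABI 1W was 0.72 ± 0.01 (log2, SD of the 2 dyes), from 0.73 with Cy3 and 0.71 with Cy5. In that comparison 4.44% of 16320 genes were called higher and 6.37% lower. By mean change the gene had rank 656 of 16320 from the highest, and 1 call among 7 genes is to be read against that background. Its change in ABI 4W was 0.31 ± 0.09, in the same direction with both dyes but short of the limit. In NBI 1W (-0.01 ± 0.25) the dyes gave opposite signs, and in NBI 4W (-0.05 ± 0.01) the change was small with both.

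*Slc13a4* (NM_172892, chr6:35267953-35308126) encodes a sodium-dependent sulfate transporter of the meninges. The control levels were 0.77 ± 0.10 in NC P7, 0.19 ± 0.12 in NC P14, 0.74 ± 0.10 in NC P35 and 1.11 ± 0.08 in NC 10W. After surgery the levels were 0.60 ± 0.14 in NBI 1W, 0.69 ± 0.06 in NBI 4W, 1.28 ± 0.03 in ABI 1W and 1.24 ± 0.35 in ABI 4W. Both arrays of NBI 1W lay above both of NC P14, whereas ABI 4W, with the widest spread between dyes, overlapped both NC 10W and ABI 1W. The change in NBI 1W was 0.41 ± 0.25 (log2), with 0.23 for Cy3 and 0.59 for Cy5, so the limit for higher was reached with Cy5 alone and the gene was not called. In NBI 1W, 0.472% of 15469 genes were called higher and 0.427% lower. The changes in NBI 4W, ABI 1W and ABI 4W were -0.05, 0.17 and 0.13, the last from dyes of opposite sign.

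*Aldh1a2* (NM_009022, chr9:71215789-71296243) encodes RALDH2, the enzyme that makes retinoic acid in the meninges. It stood at -0.55 ± 0.06 in NC P7, -1.15 ± 0.06 in NC P14, -0.61 ± 0.01 in NC P35 and -0.30 ± 0.07 in NC 10W. The operated pools gave -1.11 ± 0.09 in NBI 1W, -0.71 ± 0.03 in NBI 4W, 0.10 ± 0.10 in ABI 1W and -0.45 ± 0.01 in ABI 4W. Both arrays of ABI 1W lay above all others, and NBI 1W and NC P14 overlapped at the bottom. The change in ABI 1W was 0.40 ± 0.03 (log2), 1.32-fold, below the limit with both dyes. With each array scaled to its median in place of the 75th percentile the change was 0.66 and the gene was called, beside a median of all genes that moved from -0.08 to 0.18. In NBI 1W, NBI 4W and ABI 4W the changes were 0.04, -0.10 and -0.15.

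*Crabp2* (NM_007759, chr3:87948693-87953372) encodes the cellular protein that hands retinoic acid to its receptor. Its levels were 0.86 ± 0.05 in NC P7, 0.95 ± 0.12 in NC P14, 0.87 ± 0.11 in NC P35 and 1.17 ± 0.06 in NC 10W. In the operated pools they were 0.70 ± 0.08 in NBI 1W, 0.92 ± 0.03 in NBI 4W, 1.22 ± 0.00 in ABI 1W and 0.93 ± 0.05 in ABI 4W. It varied least of the 7 genes, and the 5 pools between the lowest and the top pair overlapped from one to the next. Both arrays of NBI 1W were below those of NC P14, with a change of -0.25 ± 0.20 (log2) that did not reach the limit with either dye. The changes in NBI 4W, ABI 1W and ABI 4W were 0.05, 0.05 and -0.24.

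*Foxc2* (NM_013519, chr8:121116171-121118895) is active in embryonic mesenchyme and gave spot signals of 195 to 504.5 over local backgrounds of 58 to 71.5. Its levels were -2.17 ± 0.04 in NC P7, -2.53 ± 0.05 in NC P14, -2.31 ± 0.11 in NC P35 and -1.94 ± 0.03 in NC 10W. They were -2.59 ± 0.05 in NBI 1W, -2.37 ± 0.15 in NBI 4W, -1.58 ± 0.02 in ABI 1W and -2.23 ± 0.18 in ABI 4W. ABI 1W stood above every other pool with both dyes, while NBI 1W and NC P14 overlapped at the bottom. The change in ABI 1W was 0.36 ± 0.01 (log2), 1.28-fold, and that in ABI 4W was -0.29 ± 0.15, on the other side of the shared control. In NBI 1W and NBI 4W the change was -0.06 each.

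**Figure D2:**
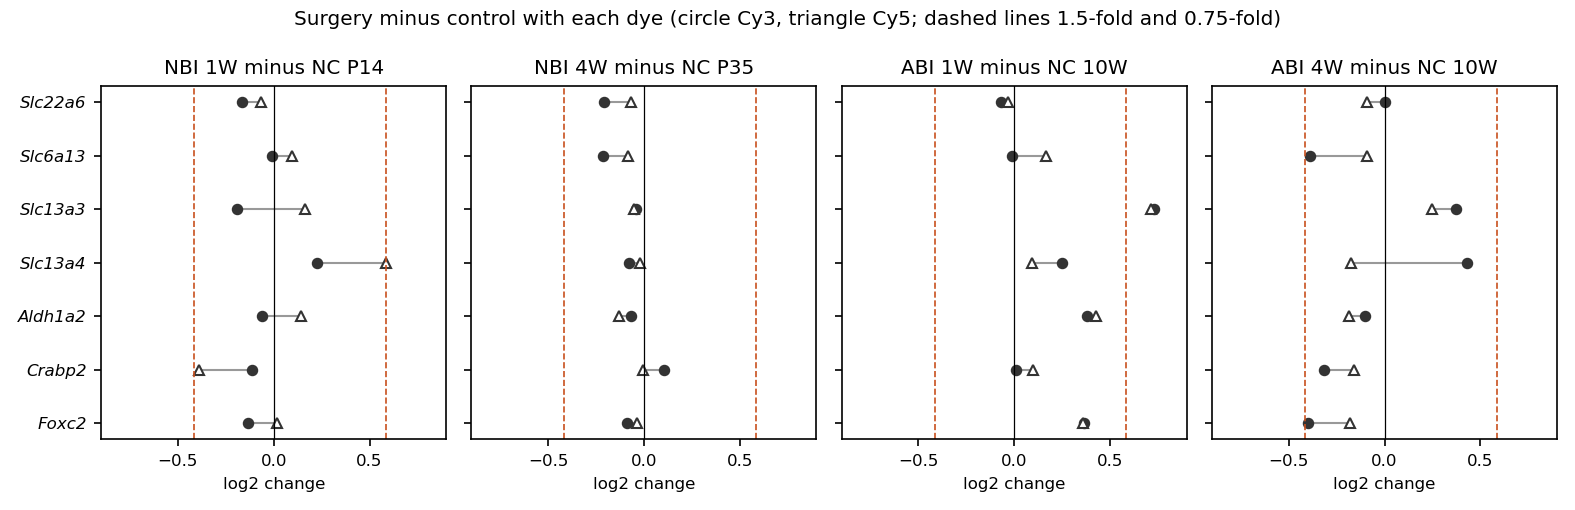
Log2 change of surgery minus control of each gene in the 4 comparisons, with Cy3 as a circle and Cy5 as a triangle joined by a line. Dashed lines mark the limits of 1.5-fold and 0.75-fold. *Slc13a3* in ABI 1W (0.73 and 0.71) is the only gene with both dyes beyond a limit.

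Taken by comparison, no gene of the 7 was called in NBI 1W, where the median change was -0.01 (log2) beside 0.06 over all genes compared. The dyes did not agree equally well in the 4 comparisons. Over genes above background in both pools, Pearson's r between the Cy3 and Cy5 changes was 0.18 in NBI 1W and 0.60 in NBI 4W. It was 0.87 in ABI 1W and 0.30 in ABI 4W. The SD of the dye difference was 0.31, 0.18, 0.22 and 0.31 in the same order. In NBI 4W, 6 of 7 were below 0 with both dyes, none by enough to be called, at a median of -0.06 beside 0.04, and 0.214% of 15873 genes were called higher and 0.75% lower. Of the 15873 genes, 4026 were below 0 with both dyes and 7417 above. The control of this comparison is the pool with *Xist* above background on both arrays. It also had the lowest levels of the Y-linked genes *Eif2s3y* (1.22, against 1.72 to 2.46 in the other pools) and *Uty* (-2.91, against -2.63 to -2.34). The Y-linked gene *Ddx3y* was not lowest there, with 0.87 in NC P35 and 0.85 in NBI 1W. *Kdm5d*, also Y-linked, was well above background on at most 1 array of any pool. The part of these X-linked and Y-linked genes in the result was not tested. In ABI 1W, 5 of 7 were above 0 with both dyes and 1 below, at a median of 0.17 beside -0.08. Over all 16320 genes compared there, 4269 were above 0 with both dyes and 8286 below. In ABI 4W, 1 of 7 was above and 4 below 0 with both dyes, at a median of -0.15 beside 0.07, where 0.43% of 16294 genes were called higher and 0.196% lower. Among the 16294, 6566 were above and 3317 below 0 with both dyes. The 2 medians of the adult comparisons share the pool NC 10W. Against NC P35 in its place, the medians were 0.54 in ABI 1W and 0.16 in ABI 4W, so the sign in ABI 4W turned with the control.

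Other genes named as leptomeningeal were compared next, from a list of 42 genes of which 2 also stand among the solute carriers below. In ABI 1W, 4.44% of all genes were called higher and 6.37% lower. Of the 42 genes, 16 were called higher there and 0 lower, with a median change of 0.46. These included genes of fibrillar collagen, *Col1a1* (24.2-fold), *Col3a1* (21.6-fold) and *Col1a2* (10.9-fold), and *Lum* (5.41-fold), a small proteoglycan of collagen fibrils. *Slc13a3* changed by 0.72 and the other 6 genes by -0.05 to 0.40 in the same pools. In NBI 1W none of 40 was called, at a median of 0.08, and in ABI 4W none of 42, at a median of 0.01. In NBI 4W 1 of 41 was called, *Zic1*, a zinc finger factor, which was lower by a log2 change of -0.63, beside 0.75% of all genes called lower.

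The other genes of the retinoid pathway numbered 30. In ABI 1W, 4.44% of all genes were called higher and 6.37% lower. Of the retinoid genes, 3 of 26 compared were called higher there and 2 lower, with a median of -0.06. *Cyp1b1*, a P450 enzyme that can oxidise retinol, was 2.93-fold higher and *Dhrs3*, a retinal reductase, 1.67-fold. *Dhrs9*, a retinol dehydrogenase, changed by -0.67 (log2) and *Rxra*, a retinoid X receptor, by -0.61. *Rarb*, a retinoic acid receptor that is itself a target of retinoic acid, was not called in ABI 1W, was called lower in NBI 4W (-0.61, from 1.63 to 1.03) and was called higher in ABI 4W (0.68, from 1.08 to 1.76). *Aldh1a2* in those 2 pools changed by -0.10 and -0.15. *Crabp1*, a relative of *Crabp2*, was the other gene called lower in NBI 4W (-0.56), and none of 24 was called in NBI 1W. Over all genes, 0.75% were called lower in NBI 4W and 0.43% higher in ABI 4W.

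Relatives of the transporters, 26 genes of the families Slc22, Slc6 and Slc13, gave no call in any of the 4 comparisons, over 22 genes compared in each. Their medians were 0.17, 0.03, 0.03 and 0.08 in NBI 1W, NBI 4W, ABI 1W and ABI 4W.

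**Figure D3:**
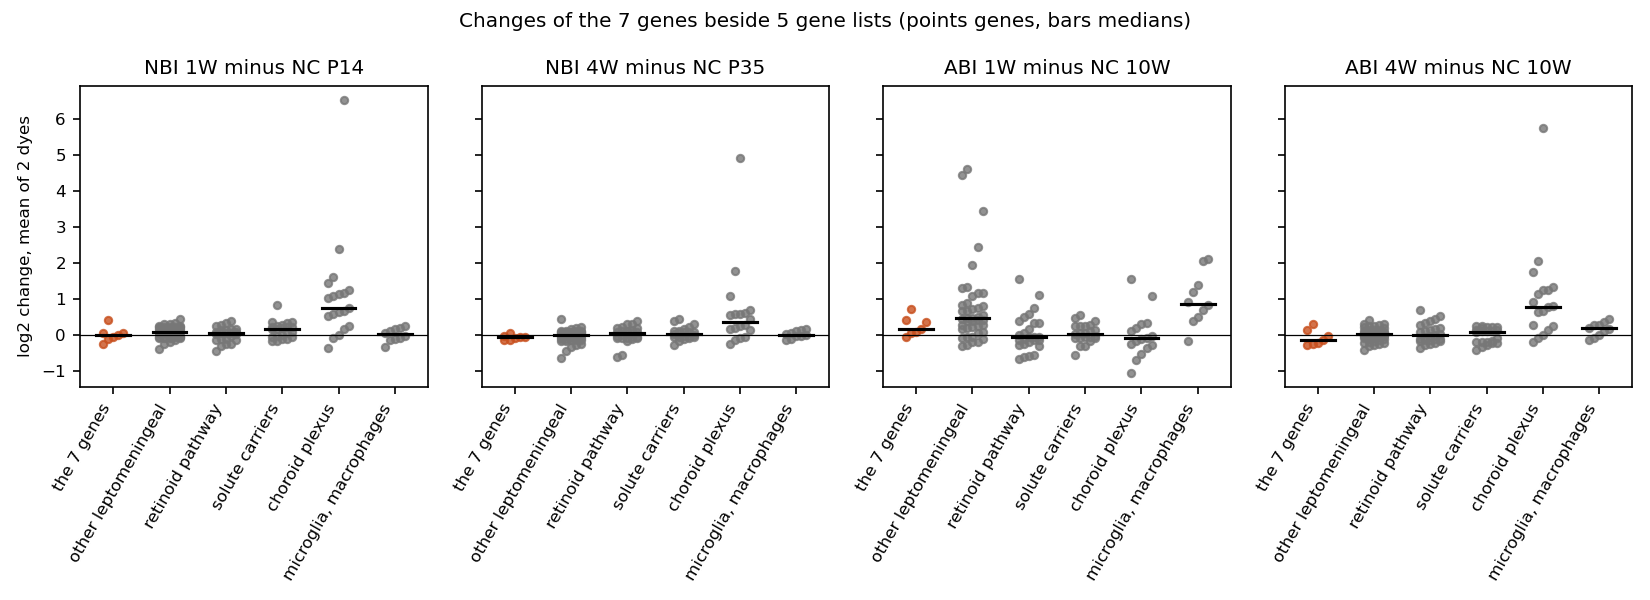
Log2 change (mean of 2 dyes) of single genes in the 4 comparisons, for the 7 genes (orange) and 5 lists (grey), with the median as a bar. The other leptomeningeal genes spread upward in ABI 1W (median 0.46) and the choroid plexus genes in NBI 1W, NBI 4W and ABI 4W (medians 0.76, 0.35 and 0.78), whereas the 7 genes stay between -0.29 and 0.72 throughout.

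Markers of other cells that could hold these transcripts moved in some of the same pools. Choroid plexus markers were called higher for 9 of 19 genes in NBI 1W, 4 of 18 in NBI 4W and 11 of 18 in ABI 4W. They were led by *Ttr*, the transthyretin gene (92.4-fold, 29.9-fold and 53.5-fold). Over all genes, 0.472%, 0.214% and 0.43% were called higher in these 3 comparisons. None of the 7 genes was called there, which is near those shares. In ABI 1W, where *Slc13a3* was called, 2 of 16 choroid plexus markers were called higher and 2 lower. Over all genes, 4.44% were called higher and 6.37% lower in ABI 1W. In that comparison 6 of 10 markers of microglia and macrophages were called higher, and their summed level was 93.2 to 94.8 in NC 10W and 146.3 to 146.7 in ABI 1W. For astrocytes, which are also known to take up dicarboxylates, 2 of 12 were called higher, *Gfap* (7.59-fold) and *Vim* (5.32-fold), and the summed level was 123.6 to 132.2 in NC 10W and 168.5 to 176.3 in ABI 1W. None of 12 endothelial markers was called in ABI 1W, while 1 of 10 mural markers, 1 of 4 lymphatic markers (*Pdpn*, 2.02-fold) and 1 of 3 blood genes (*Alas2*, 4.24-fold) were called higher. Of the 4 lymphatic markers, 3 were below 0 with both dyes, and their median change was -0.11. Of 5 markers of the kidney tubule, the other main site of *Slc22a6* and *Slc13a3*, only 2 were above background and compared in ABI 1W. Both had low levels and were called lower. *Slc34a1* went from -1.95 to -2.82 (a log2 change of -0.88) and *Aqp2* from -1.07 to -1.57 (-0.49). The part of these cells in the change of *Slc13a3* was not tested.

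The control pools also differed by age. Between NC P7 and NC P14, *Slc6a13* (-0.60, log2), *Slc13a4* (-0.58) and *Aldh1a2* (-0.60) were called lower and none of the 7 higher, beside 14.6% of 15463 genes called lower and 8.58% higher. Between NC P14 and NC 10W, *Slc22a6* (0.65), *Slc6a13* (0.89), *Slc13a4* (0.92) and *Aldh1a2* (0.85) were called higher, beside 4.55% of 16177 genes. *Slc13a3* went the other way (-0.52) and was called lower, beside 8.78% of the genes. *Crabp2* changed by 0.09 and 0.22 and *Foxc2* by -0.36 and 0.59 in these steps, without a call, *Foxc2* because its Cy3 change to 10 weeks (0.53) fell short. From NC P14 to NC P35 *Slc6a13* (0.62) was called higher and *Slc13a3* (-0.57) lower, beside 2.28% of 15726 genes called higher and 6.37% lower. None of the 7 was called between NC P35 and NC 10W, where 1.83% of 16259 genes were called higher and 0.806% lower. None was called between NC P7 and NC 10W either, where 15.7% of 16367 genes were called higher and 21.1% lower. The 4 genes called higher are at their lowest in the day 14 pools, operated or not, and the ages were measured in 1 pool each.

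The shape over the 8 pools was alike in 6 of the 7 genes. By the mean of the dyes, Pearson's r between their levels ran from 0.58 for *Slc13a4* and *Crabp2* to 0.97 for *Slc6a13* and *Aldh1a2* (n = 8 pools), and *Aldh1a2* and *Foxc2* had 0.96. For *Slc13a4* and *Crabp2* r was 0.54 with Cy3 alone and 0.40 with Cy5 alone. The spread of r over pairs of other genes was not computed. *Slc13a3* had r between -0.19 and 0.19 with the other 6. These coefficients describe pools that share 2 chips, 4 ages and the scaling of each array, and each pool is 1 point.

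**Figure D4:**
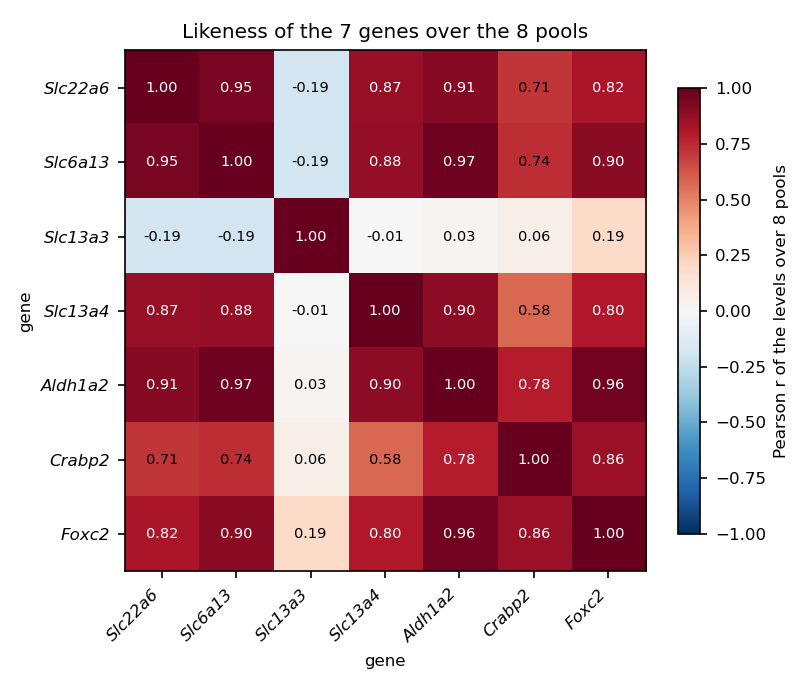
Pearson's r of the levels (mean of 2 dyes) over the 8 pools for each pair of the 7 genes, from blue (-1) to red (1). The row of *Slc13a3* is pale (-0.19 to 0.19) and the pairs of the other 6 genes are between 0.58 and 0.97.

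Among 14461 genes above background on all arrays, those most like the mean of the 7 genes were *Trip6* (r = 0.98), *St6gal1* (0.97), *Aebp1* and *Ogn* (0.96 each), *Dgka*, *Bmp6*, *Cast* and *Plscr1* (0.94 or 0.95), and *Glipr2* and *Cd274* (0.93). Of these, *Aebp1*, *Ogn* and *Bmp6*, which encode a collagen-binding protein, a small leucine-rich proteoglycan and a bone morphogenetic protein, stand in the list of other leptomeningeal genes. That list holds 42 genes, of which 38 were above background on both arrays of NC P14, so at most 38 could stand among the 14461 ranked. Coefficients picked as the highest of so many over 8 pools are high by that choice. For *Slc22a6* the nearest genes were *Bmp6* (0.98), *Slc16a11* (0.97) and *Ass1* (0.96), and for *Slc6a13* they were *Asgr1* (0.99), *Aldh1a2* (0.97) and *Slc22a6* (0.95). For *Slc13a4* they were *Derl1* (0.99), *Rab8b* (0.98) and *Nsmce4a* (0.95). *Aldh1a2* was followed by *St6gal1* (0.98), *Slc6a13* and *Trip6* (0.97 each), *Crabp2* by *S100a11* (0.89), *Foxc2* and *Fmod* (0.86 each), and *Foxc2* by *Aldh1a2*, *Six2* (0.96 each) and *St6gal1* (0.95). For *Slc13a3* they were *Prrx1* (0.97), *Pde3b* (0.96) and *Lyl1* (0.95), none of which was among the nearest of another gene of the 7.

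The DNA before the start of transcription was read for the pair with the highest r, *Slc6a13* and *Aldh1a2*, and for *Slc13a3*, the gene with a different shape and the called change. Sequences are the 250 bases before a RefSeq start in GRCm38.p6, 5′ to 3′ on the strand of the gene, and capitals mark the core motif of retinoic acid receptors (AGGTCA, or its reverse complement). For *Aldh1a2* the window is chr9:71215539-71215788 on the plus strand, for *Slc13a3* chr2:165473198-165473447 on the minus strand, and for *Slc6a13* chr6:121303389-121303638 on the plus strand. The last was picked from the 3 starts of *Slc6a13* because it holds the motif.
Aldh1a2: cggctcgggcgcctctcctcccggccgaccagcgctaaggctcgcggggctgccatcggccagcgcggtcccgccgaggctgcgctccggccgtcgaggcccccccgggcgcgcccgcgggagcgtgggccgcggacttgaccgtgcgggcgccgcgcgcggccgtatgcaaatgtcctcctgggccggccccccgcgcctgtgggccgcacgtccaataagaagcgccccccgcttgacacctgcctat
Slc13a3: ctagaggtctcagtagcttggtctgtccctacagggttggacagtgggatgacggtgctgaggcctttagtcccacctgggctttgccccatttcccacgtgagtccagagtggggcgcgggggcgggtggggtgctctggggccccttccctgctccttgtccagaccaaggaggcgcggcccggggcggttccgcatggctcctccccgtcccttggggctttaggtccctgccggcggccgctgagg
Slc6a13: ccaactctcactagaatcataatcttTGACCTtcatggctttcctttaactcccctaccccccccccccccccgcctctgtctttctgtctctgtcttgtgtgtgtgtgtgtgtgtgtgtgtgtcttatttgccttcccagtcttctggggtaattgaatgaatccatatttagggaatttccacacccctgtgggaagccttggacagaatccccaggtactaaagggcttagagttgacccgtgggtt

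A window was at hand for 5 of the 7 genes, with 7 windows in all. The core motif stood in 1 of these 7, that of *Slc6a13* printed above, where it begins 224 bases before the start, and in 14.0% of all 32851 windows. A direct repeat of the core motif with a spacing of 5 or of 2 bases, the forkhead core TGTTTAC and the TATA motif TATAAA, searched on both strands, were in none of the 7, and in 0.0091%, 0.0091%, 3.17% and 12.4% of all windows. The core motif also lies within each direct repeat. The bases G and C made up 77.6% of the *Aldh1a2* window, 67.6% of that of *Slc13a3*, and 60.8%, 51.6% and 49.6% of the 3 windows of *Slc6a13*, the last being the one printed, against a median of 52.4% over all windows. A match is a description of the letters, and no match says only that they are not in this window.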

How the data were processed

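RNA of 8 pools was labelled with each of the dyes Cy3 and Cy5 and hybridised to 16 Agilent mouse 8 × 60 K arrays. Spots were quantified by the authors with Agilent Feature Extraction 11.0.1.1 per the labels, and the deposited tables hold spot intensities (median signal, local background and a processed signal) in arbitrary units. The authors' value table holds the processed signal unscaled.

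The median signal of the labelled channel was corrected with normexp (offset 50) in limma 3.58.1 (R 4.3.3), put on the log2 scale and reduced by the 75th percentile of the array in Python 3.11.15 with numpy 2.4.6 and pandas 2.3.3. Control spots and spots with an outlier mark (140 to 237 per array) were dropped. Probes were named by RefSeq accession, which matched 26582 of 55681 probes, and the brightest probe stood for a gene. A gene entered a comparison when 1 or both pools had the probe well above background with Cy3 and Cy5, and a pool below background was held at the lowest signal measured above it. Precision is limited by the number of arrays and the signal over background. The calls were checked on simulated data, made from the control pools with the spread between dyes and with changes well beyond the limits. That check does not cover changes near a limit or differences between pools of animals.

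The 7 genes and the lists were chosen with earlier results of these data known, and the astrocyte list and the check of *Xist* and Y-linked genes were added after the values of the 7 genes had been seen. Named genes are the 7 genes, up to 4 called genes for each list and comparison, the 10 genes most like the mean and the 3 most like each gene, and markers on which a result turns. The values of 1 called gene are not reported here. Alternatives were the processed signal, median scaling, quantile normalization, the value table, other background filters, symmetric limits, the mean over probes, a neighbouring control age and each dye alone. Gene positions and the windows before the starts come from RefSeq tables for GRCm38.p6, and no position was taken from the arrays.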

Additional observations from a re-analysis of the deposited data

How the results depend on the processing

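The call of *Slc13a3* in ABI 1W was made under all 11 alternatives, with log2 changes of 0.71 to 0.98, although 3 of them (both background filters and the mean over probes) could not change a gene with 1 probe above background on all arrays. Symmetric limits left the limit for higher as it was. Each dye alone had to repeat a call that already needed both dyes. So only 5 alternatives could have undone the call: the processed signal, median scaling, quantile normalization, the value table and the neighbouring control age. Of the 140 values of the 7 genes under the 5 alternatives that could move them beyond the spread between dyes, 64 did and 76 did not. With median scaling 2 genes were called higher in ABI 1W (*Aldh1a2* was added), and the medians were 0.43 in ABI 1W, -0.19 in ABI 4W and -0.13 in NBI 4W. This scaling shifts all genes of an array alike, and it moved the median of all genes in ABI 1W from -0.08 to 0.18. The 7 genes stood 0.25 above that median, 0.19 with quantile normalization and 0.22 with the processed signal. With the authors' value table, unscaled between arrays, the medians were 0.24, -0.32 and -0.34 in the same order, and 1 gene was called lower in ABI 4W (*Foxc2*, -0.58). In NBI 4W the median was -0.10 with the processed signal and -0.10 with quantile normalization. Against the neighbouring control age, 3 genes were called higher in ABI 1W (*Slc13a3*, *Aldh1a2*, *Foxc2*) and 3 lower in NBI 1W (*Slc22a6*, *Slc6a13*, *Aldh1a2*), with medians of -0.41 in NBI 1W, -0.41 in NBI 4W, 0.54 in ABI 1W and 0.16 in ABI 4W. Under that setting 4.69% of all genes were called higher in ABI 1W and 9.52% lower in NBI 1W, and the pools compared differ more in age.

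With 1 dye alone the medians ran from -0.11 to 0.09 in NBI 1W, -0.08 to -0.05 in NBI 4W, 0.17 to 0.25 in ABI 1W and -0.16 to -0.10 in ABI 4W. The count called higher in NBI 1W ran from 0 to 1 (*Slc13a4* with Cy5 alone), and the other counts did not move. Over all genes the split of calls, higher and lower, shifted with scaling: 73 and 66 in NBI 1W became 58 and 133 with median scaling, 46 and 101 with quantile normalization and 102 and 486 with the value table. In NBI 4W 34 and 119 became 20 and 170 with median scaling and 39 and 1266 with the value table, in ABI 1W 725 and 1039 became 1266 and 313 with median scaling and 972 and 393 with quantile normalization, and in ABI 4W 70 and 32 became 57 and 48 with median scaling and 52 and 496 with the value table. No paired analysis was possible because each condition is 1 pool and the replicate numbers are dyes, and every change was already taken within a dye.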
